A study of Rattus norvegicus with 372 samples.

Results

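The glutathione S-transferases described here are 10 genes, Gsta2, Gsta3, Gsta4, Gstm1, Gstm2, Gstm3, Gstp1, Gstt1, Gstt2 and Mgst1, and they were found by the gene name in each probe's label. Of these, 9 genes were measured by 10 probes among the 20946 genes of the whole-transcriptome (WT) assay, and 7 genes were measured among the 2604 genes of a smaller targeted assay (ST), which had no probe named Gstt1 or Gstt2. Gstm1 was not analysed here. All 9 genes measured by WT passed the filter on low counts, together with 10191 genes in all.

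Both assays are versions of TempO-Seq, in which pairs of detector oligonucleotides are ligated on RNA in a cell lysate and the ligated probes are counted by sequencing. The hepatocytes came from male Wistar rats, were kept between layers of collagen in William's E medium that contained dexamethasone, and were exposed for 24 h to 14 chemicals at a high and a low concentration. The high and low concentrations were 10000 and 400 µM for acetaminophen, caffeine, isoniazid and valproic acid, 4000 and 160 µM for ranitidine, 2000 and 80 µM for naproxen, 450 and 18 µM for chloramphenicol, 400 and 16 µM for diclofenac, 300 and 12 µM for indomethacin, 200 and 8 µM for WY14643, 100 and 4 µM for sulfasalazine, 60 and 2.4 µM for simvastatin, 15 and 0.6 µM for ketoconazole, and 2 and 0.08 µM for doxorubicin. All chemicals and the vehicle shared 0.5% DMSO, and culture medium alone was a further control. Each batch held the hepatocytes of 1 rat with 3 wells per treatment, so that wells repeat the measurement of one animal and biological replication rests on the 2 rats. Vehicle and medium had 3 wells each in batch 1, which shared a single plate, and 6 wells each in batch 2, spread evenly over its plates. Total WT counts per well were 2709504 to 8948654 in the 90 wells of batch 1 and 2289425 to 8975207 in the 96 wells of batch 2. In batch 1, acetaminophen, chloramphenicol, indomethacin, ketoconazole, sulfasalazine and WY14643 were on the plate that had no vehicle well, so for these 6 chemicals plate and treatment cannot be told apart in that batch. Treatments are named as the sample labels name them, in both assays. For caffeine, chloramphenicol, diclofenac, doxorubicin, indomethacin, isoniazid, ketoconazole, sulfasalazine and valproic acid, the width of the response under these labels is not the one tabulated for that chemical in the study, where it stands beside another of these names, so the rows of that tabulation look exchanged. The study's other measures run with the labels. Its clustering sets the low concentration of valproic acid apart, and its search of an outside data set ranked the chemical of the same name first, by at least one scoring method, for the high concentrations of all of these except sulfasalazine. Cyp51, the sterol demethylase that azole antifungals inhibit, was chosen as a check after its values were seen. It rose more in the wells labelled ketoconazole at 15 µM (log2 fold change 2.99 ± 0.21 SE, adjusted p = 8.86e-28) than with any other treatment, and in the wells labelled doxorubicin at 2 µM it stood at -0.12 ± 0.22 (adjusted p = 0.763), both of which run with the labels. The other labels were not checked in this way.

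Glutathione S-transferases join the tripeptide glutathione to electrophilic compounds, among them reactive drug metabolites and products of lipid peroxidation, and the conjugates are exported from the cell and processed to mercapturates. The alpha, mu, pi and theta classes are cytosolic and differ in their substrates, whereas Mgst1 is a membrane protein of a separate family that sits in the endoplasmic reticulum and the outer mitochondrial membrane. Alpha and mu enzymes are abundant in rat hepatocytes, and the pi enzyme Gstp1 is known as a marker of preneoplastic rat liver. Several of these genes are textbook targets of the transcription factor Nrf2, which acts through antioxidant response elements, and of xenobiotic receptors such as AhR, CAR and PXR.

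The 250 bases before the start site are shown for the gene with the largest rises (Gsta2), the pair that fell together (Gstm2 and Gstm3), and the pi gene (Gstp1), whose promoter held the one match among these 4 genes to an antioxidant response element core. The sequences are from RefSeq on the GRCr8 build, at chr8:88077093-88077342 for Gsta2, chr2:198316918-198317167 for Gstm2, chr2:198300668-198300917 for Gstm3 and chr1:210769706-210769955 for Gstp1, all on the minus strand. Capitals mark matches, on either strand, to the antioxidant response element core TGACNNNGC, the AP-1 site TGAGTCA or the xenobiotic response element core GCGTG.
Gsta2: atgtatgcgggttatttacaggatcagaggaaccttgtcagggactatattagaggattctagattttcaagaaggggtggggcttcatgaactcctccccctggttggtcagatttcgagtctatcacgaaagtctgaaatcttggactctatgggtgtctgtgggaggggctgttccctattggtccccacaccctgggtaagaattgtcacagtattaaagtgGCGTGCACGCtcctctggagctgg
Gstm2: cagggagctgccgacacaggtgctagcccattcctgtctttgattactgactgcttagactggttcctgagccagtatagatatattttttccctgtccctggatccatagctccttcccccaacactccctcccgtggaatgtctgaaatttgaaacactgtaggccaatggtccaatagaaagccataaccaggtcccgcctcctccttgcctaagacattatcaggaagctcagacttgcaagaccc
Gstm3: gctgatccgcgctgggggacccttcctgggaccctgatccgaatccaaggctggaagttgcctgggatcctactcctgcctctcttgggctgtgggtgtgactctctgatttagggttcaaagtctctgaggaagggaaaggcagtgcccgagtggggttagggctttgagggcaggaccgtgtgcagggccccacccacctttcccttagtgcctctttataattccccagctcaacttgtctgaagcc
Gstp1: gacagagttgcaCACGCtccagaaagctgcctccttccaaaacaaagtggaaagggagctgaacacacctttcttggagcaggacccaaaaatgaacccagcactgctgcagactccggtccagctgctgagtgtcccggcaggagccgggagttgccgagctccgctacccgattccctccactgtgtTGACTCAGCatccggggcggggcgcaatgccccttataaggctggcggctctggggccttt
The Gstp1 match TGACTCAGC lay 61 to 53 bases before the start site, and an AP-1 match on the opposite strand overlapped it. In Gsta2, GCGTG and its reverse complement stood next to each other 24 to 15 bases before the start site. No match was found in the windows of Gstm2, Gstm3 and Mgst1. Over all 33469 promoter windows of this length, TGACNNNGC was present in 10.1%, TGAGTCA in 4.05% and GCGTG in 25.9%. Among the other members, Gsta4 had GCGTG matches, Gsta3 had TGACTTCGC 17 to 9 bases before one of its start sites and GCGTG 233 to 229 bases before another, and the table held no window for Gstt1 or Gstt2. A match of letters is a description of the window and does not show that a factor binds there.

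Which paralog a probe reads is uncertain for the alpha and mu genes. RefSeq lists Gsta2 also as a synonym of Gsta5, Gsta3 as a synonym of Gsta1, and Gstm3 as a synonym of Gstm5 and Gstm7, and near-identical paralogs may share ligation products. Levels are given as CPM, a gene's share of all counts of its well scaled to a fixed total. They serve comparisons of one probe between wells and not of levels between genes, because detector probes differ in efficiency. In the vehicle wells, the medians over both batches were 29.1 CPM for Gsta2, 6.31 for Gsta3, 34.7 for Gsta4, 51.8 for Gstm3, 228 for Gstp1, 22.5 for Gstt1, 201 for Gstt2 and 673 for Mgst1. The first Gstm2 probe had a median of 565 CPM and the second a median of 4.45 CPM. Vehicle levels of Gstp1 were 116 to 132 CPM in batch 1 and 216 to 287 CPM in batch 2, and those of Gstm2 were 348 to 405 and 552 to 695 CPM, so neither pair of ranges overlapped. For the other members measured the vehicle ranges of the batches overlapped. The share of all genes with separate ranges was not computed. Rat, culture and library preparation cannot be told apart in such differences between batches.

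Each treatment was compared with vehicle in a fit of both batches with batch as a term, and a gene was called at an adjusted p under 0.05 in edgeR's quasi-likelihood test with Benjamini-Hochberg adjustment over all 10191 genes. At the high concentrations, 45 of the 126 gene and treatment pairs rose and 55 fell, where 25.4% and 25.5% of all pairs tested did so. At the low concentrations, 12 pairs rose and 8 fell, against 4.91% and 4.5% of all pairs. Medium alone differed from vehicle in 1 of the 9 genes, where 7.51% of all genes were higher and 5.1% lower. The log2 fold changes (L2FC) below carry the standard error of the fit over 6 treated wells of 2 rats, and this error is mainly that between wells. From counts in lysates alone, fewer hepatocytes and less RNA per hepatocyte cannot be told apart. The study measured viability by ATP in a parallel set of wells. The high concentrations of valproic acid and indomethacin had the lowest values there. How viability relates to the members was not tested.

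**Figure D1:**
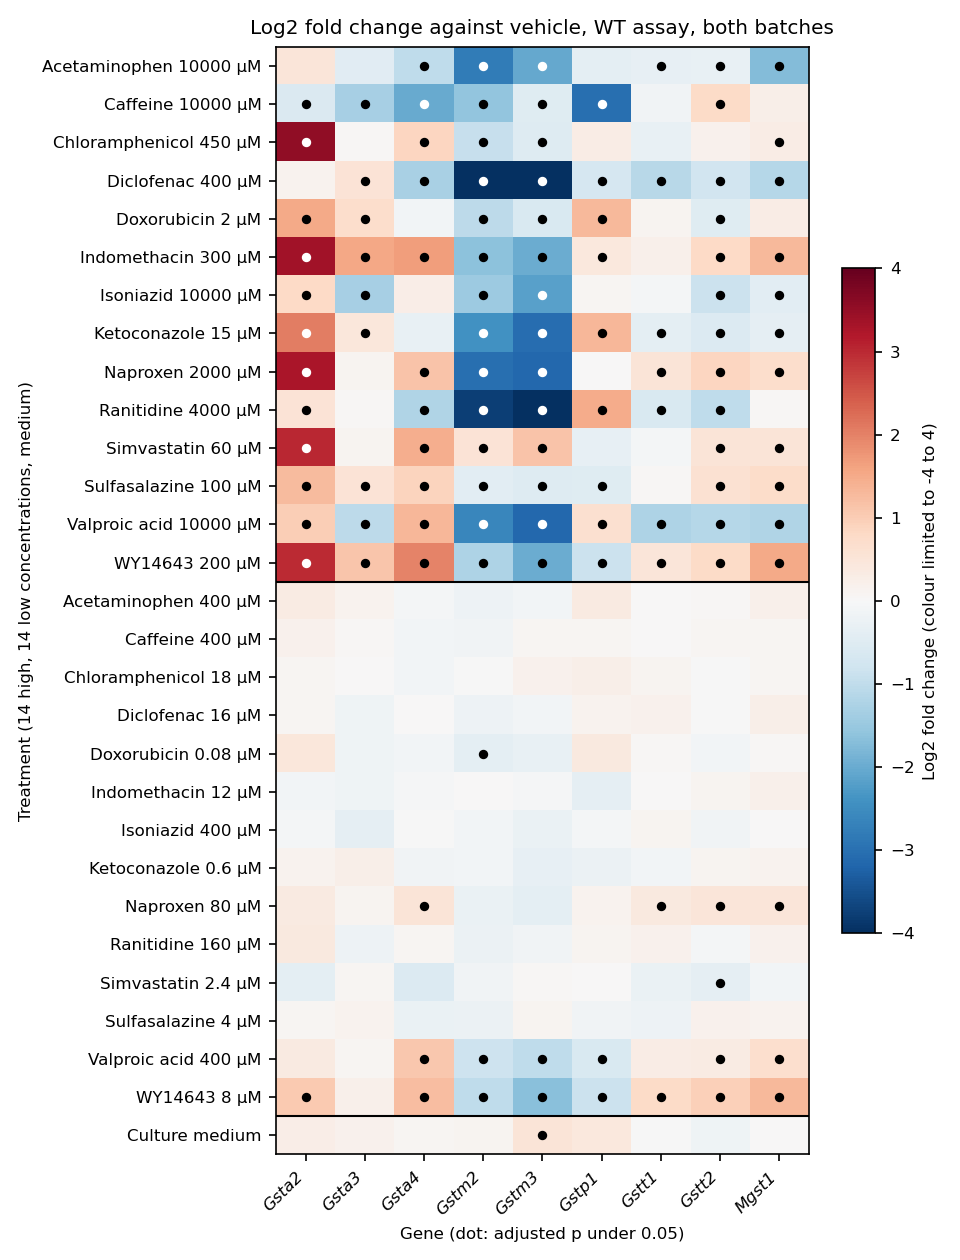
Log2 fold change of the 9 measured glutathione transferase genes (columns) against vehicle for the 14 high concentrations, the 14 low concentrations and culture medium (rows), WT assay, both batches in one fit; red is higher, blue is lower, colour is limited to -4 to 4, and a dot marks an adjusted p under 0.05. Gsta2 was called higher in 11 of the 14 high concentrations, Gstm2 and Gstm3 were called lower in 13 each, and 20 of 126 pairs were called at the low concentrations.

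Gsta2, of the alpha class, was called higher with 11 of the 14 high concentrations and lower with 1. With the wells added to 1 library per rat and treatment, it was called higher with 6 and lower with 0. In the vehicle wells of batch 1 Gsta2 stood at 30.5, 29.7 and 32.3 CPM, and in the 6 vehicle wells of batch 2 at 15.3 to 29.8 CPM with a median of 20.7. Under 450 µM chloramphenicol, an antibiotic that inhibits mitochondrial protein synthesis, the wells held 525, 824 and 647 CPM in batch 1 and 130, 125 and 128 CPM in batch 2. Every treated well was above every vehicle well of its batch. The L2FC was 3.55 ± 0.25 (SE; adjusted p = 1.36e-27), which is 11.7-fold, and it was 4.34 in batch 1 and 2.35 in batch 2. The difference between the batches was itself past the threshold (adjusted p = 2.3e-06). The nonsteroidal anti-inflammatory drug indomethacin, at 300 µM, gave 357, 422 and 386 CPM in batch 1 and 170, 120 and 147 CPM in batch 2, an L2FC of 3.36 ± 0.25 (adjusted p = 5.9e-27). Naproxen, of the same drug class, gave 3.28 ± 0.25, the HMG-CoA reductase inhibitor simvastatin 3.02 ± 0.24, and the PPARα agonist WY14643 2.98 ± 0.24. The 1 call in the other direction was caffeine at 10000 µM, with 26.5, 36.4 and 16.2 CPM in batch 1, which overlapped the vehicle wells, and 15.0, 8.12 and 5.77 CPM in batch 2, which were all below them. Its L2FC was -0.58 ± 0.27 (adjusted p = 0.0487), with -0.03 in batch 1 and -1.12 in batch 2. Diclofenac, although also an anti-inflammatory drug of this type, gave 0.15 ± 0.25 for Gsta2 (adjusted p = 0.594).

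Gsta4, an alpha enzyme known for conjugating the lipid peroxidation product 4-hydroxynonenal, was called higher with 7 high concentrations and lower with 4, both as they are and with the wells added per rat. Its vehicle wells stood at 40.8, 34.2 and 34.5 CPM in batch 1 and at 34.2 to 48.5 CPM in batch 2, with a median of 38.5. With 200 µM WY14643 the levels were 188, 183 and 175 CPM in batch 1 and 106, 102 and 90.5 CPM in batch 2. All of these wells were above vehicle, and the L2FC was 1.99 ± 0.16 (adjusted p = 9.46e-24). With 10000 µM caffeine they were 6.62, 8.86 and 11.6 CPM in batch 1 and 9.29, 9.90 and 8.66 CPM in batch 2. These wells were all below vehicle, with an L2FC of -2.02 ± 0.19 (adjusted p = 4.92e-19). Diclofenac, ranitidine and acetaminophen were the other chemicals that lowered it, with L2FC from -1.30 to -1.01. For chloramphenicol the call of Gsta4 rested on batch 1, where the wells held 129, 113 and 139 CPM (L2FC 1.72). In batch 2 they held 35.0, 47.5 and 48.1 CPM, within the vehicle range (L2FC -0.05, and -0.25 against the vehicle wells of the same plate), and chloramphenicol was on the batch 1 plate without vehicle wells. For sulfasalazine, on the same plate, the values were 1.61 in batch 1 and 0.23 in batch 2. The high concentration against the low one of the same chemical, which lay on the same plate, gave 0.99 ± 0.18 for chloramphenicol and 1.15 ± 0.18 for sulfasalazine over both batches.

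Gsta3 had the lowest counts of the members, with 5.08, 3.46 and 6.43 CPM in the vehicle wells of batch 1 and 4.03 to 12.5 CPM in batch 2. It was called higher with 6 high concentrations and lower with 3, and with the wells added per rat with 3 and 3. Indomethacin gave 12.0, 14.5 and 12.5 CPM in batch 1 and 28.5, 25.1 and 15.1 CPM in batch 2, all above vehicle, with an L2FC of 1.53 ± 0.19 (adjusted p = 1.3e-12). Caffeine gave 1.57, 3.08 and 1.33 CPM in batch 1 and 5.47, 1.02 and 2.23 CPM in batch 2, of which 1 well overlapped vehicle, with an L2FC of -1.34 ± 0.24 (adjusted p = 2.4e-07). Isoniazid and valproic acid were the other chemicals that lowered it. Within batch 2, vehicle wells of the plates differed by -0.93 in Gsta3 (unadjusted p = 0.00264, adjusted p = 0.194). Its smaller rises, 0.46 to 0.70 with ketoconazole, diclofenac, sulfasalazine and doxorubicin, were below that difference.

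Gstm2 and Gstm3, the mu class members measured, were each called lower with 13 of the 14 high concentrations and higher with simvastatin, where 25.5% of all gene and treatment pairs were lower. With the wells added per rat, Gstm2 was called lower with 12 and Gstm3 with 9, and each was still called higher with 1. Gstm2 stood at 405, 348 and 374 CPM in the vehicle wells of batch 1 and at 552 to 695 CPM in batch 2, with a median of 598. With 400 µM diclofenac, whose oxidised metabolites are known to react with glutathione, it stood at 11.7, 24.4 and 16.0 CPM in batch 1 and at 41.3, 29.4 and 26.9 CPM in batch 2. Every treated well was far below vehicle, and the L2FC was -4.49 ± 0.14 (adjusted p = 1.45e-69), a 22.5-fold lower level. In the same wells all 5 hepatocyte markers examined (Alb, Apoa1, Ttr, Cps1 and Serpina1) were called lower, with a median L2FC of -2.56. With ranitidine all 5 were called lower, with a median of -1.87. Acetaminophen lowered the first Gstm2 probe 10.3-fold in batch 1 and 8.94-fold in batch 2. There 1 marker was called higher and 2 lower, with a median of 0.15. WY14643 at 200 µM, which also lowered Gstm2, had 1 marker higher and 2 lower, with a median of -0.21. Ranitidine, a histamine H2 receptor antagonist, gave 33.4, 36.2 and 39.2 CPM in batch 1 and 32.3, 31.8 and 32.0 CPM in batch 2, with an L2FC of -3.77 ± 0.13. The smallest called falls of Gstm2 were those with chloramphenicol (-0.93 ± 0.11) and sulfasalazine (-0.41 ± 0.11, with -0.05 in batch 1 and -0.66 in batch 2). Simvastatin at 60 µM gave 616, 622 and 572 CPM in batch 1 and 706, 822 and 769 CPM in batch 2. All 6 wells were above the vehicle wells of their batch, and the L2FC was 0.53 ± 0.11 (adjusted p = 4.02e-05).

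Gstm3 stood at 40.3, 43.9 and 54.8 CPM in the vehicle wells of batch 1 and at 46.8 to 67.7 CPM in batch 2, with a median of 52.1. With diclofenac it fell to 0.524, 0.645 and 0.515 CPM in batch 1 and 2.20, 0.555 and 0.7998 CPM in batch 2, which were 3 to 16 counts a well. The L2FC was -5.95 ± 0.29 (adjusted p = 4.01e-45), the largest change of any member in either direction. Ranitidine gave 0.749, 1.60 and 1.51 CPM in batch 1 and 1.78, 1.44 and 1.60 CPM in batch 2, with an L2FC of -5.05 ± 0.26. Simvastatin raised Gstm3 to 98.6, 105 and 105 CPM in batch 1 and to 102, 127 and 116 CPM in batch 2. These wells were all above vehicle, and the L2FC of 1.15 ± 0.17 (adjusted p = 1.18e-08) is 2.22-fold. In culture medium alone, Gstm3 was the 1 member that differed from vehicle, with 80.5, 64.6 and 78.9 CPM in batch 1 and 52.0 to 87.1 CPM in batch 2 (L2FC 0.51 ± 0.16, adjusted p = 0.0167), and the groups overlapped in batch 2, where the change alone was not called (0.40, adjusted p = 0.125).

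The 2 probes that carry the name Gstm2 in the WT assay did not move alike. The first gave nearly all of the counts above, and the second is named GSTM7 in the ST assay. With 200 µM WY14643 the first probe went from 345 to 401 CPM in vehicle to 135, 139 and 122 CPM in batch 1, and from 547 to 689 CPM in vehicle to 224, 173 and 186.5 CPM in batch 2. In the same wells the second probe went from 2.73 to 4.23 CPM in vehicle to 11.5, 12.4 and 21.8 CPM in batch 1, and from 4.43 to 6.22 CPM to 17.8, 29.8 and 31.3 CPM in batch 2. In both batches the first probe was below and the second above all vehicle wells. The first probe was lower and the second higher than vehicle, by at least 0.5 on the log2 scale of mean CPM in both batches, with 5 of the 28 treatments, namely caffeine at 10000 µM and valproic acid and WY14643 at both concentrations. With diclofenac, ranitidine and ketoconazole, among others, both probes were lower at the high concentration. The ratios of these probes are descriptions of group means and were not tested in WT, where the counts of probes that share a name were added. In the ST assay the second probe counts as a gene of its own, Gstm7. There it was called higher with 5 high and 5 low concentrations and lower with 5 high ones, where 27.9% of all ST pairs were higher and 29.7% lower at the high concentrations and 6.33% and 5.57% at the low ones. Gstm7 was also lower in culture medium than in vehicle (-0.63 ± 0.21, adjusted p = 0.023). Its rises included WY14643 at 200 µM with an L2FC of 2.59 ± 0.20 (adjusted p = 9.01e-25) and at 8 µM with 2.12 ± 0.21 (adjusted p = 2.1e-18). The ST values of Gstm2 for the same treatments were -1.56 and -1.24.

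**Figure D2:**
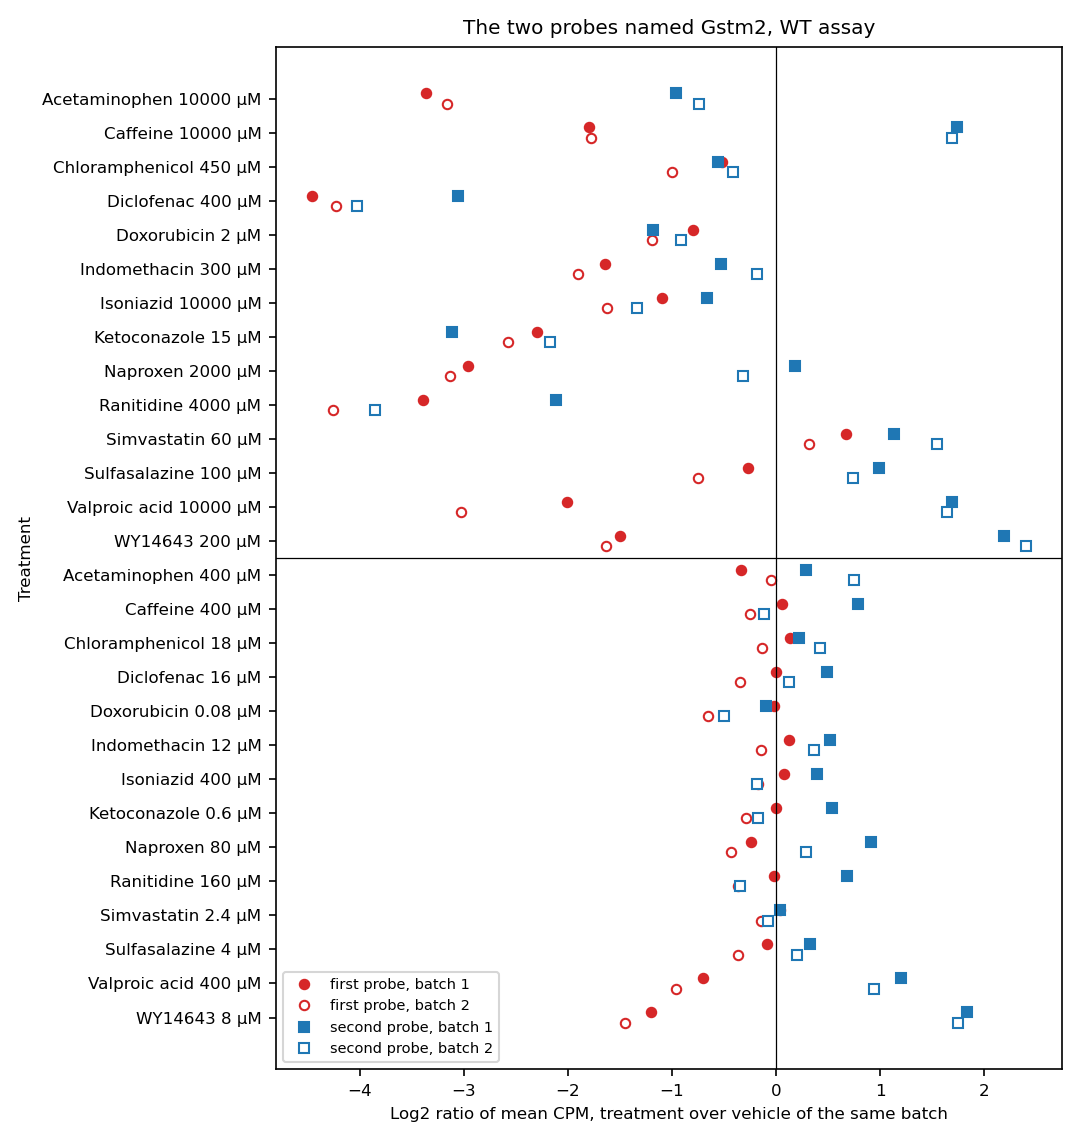
Log2 ratio of mean CPM over vehicle of the same batch for the first (red circles) and the second (blue squares) probe named Gstm2, for the 14 high and 14 low concentrations, WT assay; filled symbols are batch 1 and open symbols batch 2, each the mean of 3 wells. The first probe lies below 0 and the second above 0 in both batches for 9 of the 28 treatments, and by at least 0.5 each for WY14643 and valproic acid at both concentrations and for caffeine at 10000 µM.

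Gstp1, the pi enzyme, was called higher with 5 high concentrations and lower with 4, and with the wells added per rat with 3 and 3. Vehicle wells held 132, 118 and 116 CPM in batch 1 and 216 to 287 CPM in batch 2, with a median of 262. Caffeine, an adenosine receptor antagonist, gave 6.45, 8.47 and 9.33 CPM in batch 1 and 52.2, 28.9 and 35.1 CPM in batch 2. All of these wells were below vehicle, and the L2FC was -3.03 ± 0.21 (adjusted p = 1.06e-28), which is 8.16-fold lower. The change was -3.71 in batch 1 and -2.63 in batch 2, and that difference passed its test (adjusted p = 0.0259). Ranitidine gave 284, 317 and 328 CPM in batch 1 and 678, 541 and 660 CPM in batch 2, all above vehicle, with an L2FC of 1.48 ± 0.18 (adjusted p = 2.39e-13). The antifungal ketoconazole gave 153, 150 and 147 CPM in batch 1 and 1033, 766 and 1015 CPM in batch 2, and doxorubicin gave 229, 210 and 197 CPM in batch 1 and 952, 698 and 743 CPM in batch 2. For ketoconazole the L2FC was 0.39 in batch 1 and 1.95 in batch 2, which differed (adjusted p = 8.55e-05), and ketoconazole was on the batch 1 plate without vehicle wells. Valproic acid moved Gstp1 down at 400 µM (-0.60 ± 0.19, adjusted p = 0.00744) and up at 10000 µM (0.64 ± 0.18, adjusted p = 0.000961). The direct comparison of its concentrations gave 1.24 ± 0.20 (adjusted p = 2.37e-08).

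Of the theta class, Gstt2 was called with 13 of the 14 high concentrations, 6 higher and 7 lower, with small changes and little spread between wells. Vehicle wells held 201, 170 and 168 CPM in batch 1 and 192 to 214 CPM in batch 2, with a median of 205. Naproxen at 2000 µM gave 323, 357 and 300 CPM in batch 1 and 372, 390 and 349 CPM in batch 2, all above vehicle (L2FC 0.85 ± 0.08, adjusted p = 1.47e-17). Valproic acid at 10000 µM gave 106, 127 and 92.1 CPM in batch 1 and 87.2, 110 and 120 CPM in batch 2, all below vehicle (-1.13 ± 0.09, adjusted p = 2.12e-24). Caffeine, which lowered the alpha, mu and pi members, raised Gstt2 to 295, 302 and 311 CPM in batch 1 and 285, 338 and 287 CPM in batch 2 (0.77 ± 0.08). Gstt1 was called higher with 2 high concentrations and lower with 5, and with the wells added per rat with 2 and 3. Valproic acid took it from 18.5, 20.4 and 17.5 CPM in vehicle to 8.22, 11.3 and 10.2 CPM in batch 1, and from 20.2 to 31.4 CPM to 11.5, 13.8 and 12.3 CPM in batch 2 (-1.23 ± 0.15, adjusted p = 2.64e-13). Its largest rise at a high concentration was with naproxen (0.53 ± 0.13), and WY14643 at 8 µM gave 0.76 ± 0.13.

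Mgst1, the microsomal member, was called higher with 6 high concentrations and lower with 5, and with the wells added per rat with 5 and 3. It stood at 746, 795 and 668 CPM in the vehicle wells of batch 1 and at 618 to 726 CPM in batch 2, with a median of 666. WY14643 at 200 µM gave 1682, 1837 and 2376 CPM in batch 1 and 1667, 1406 and 1492 CPM in batch 2. Every one of these wells was above vehicle, and the L2FC of 1.52 ± 0.12 (adjusted p = 9.27e-26) is 2.88-fold. Indomethacin gave a similar change, 1.29 ± 0.12. Acetaminophen, whose reactive quinone imine is known to be conjugated to glutathione, gave 107, 125 and 137 CPM in batch 1 and 190, 198 and 175 CPM in batch 2. All wells were below vehicle, with an L2FC of -1.74 ± 0.13 (adjusted p = 2.73e-28), which was larger in batch 1 (-2.14) than in batch 2 (-1.41, adjusted p of the difference = 0.0145).

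**Figure D3:**
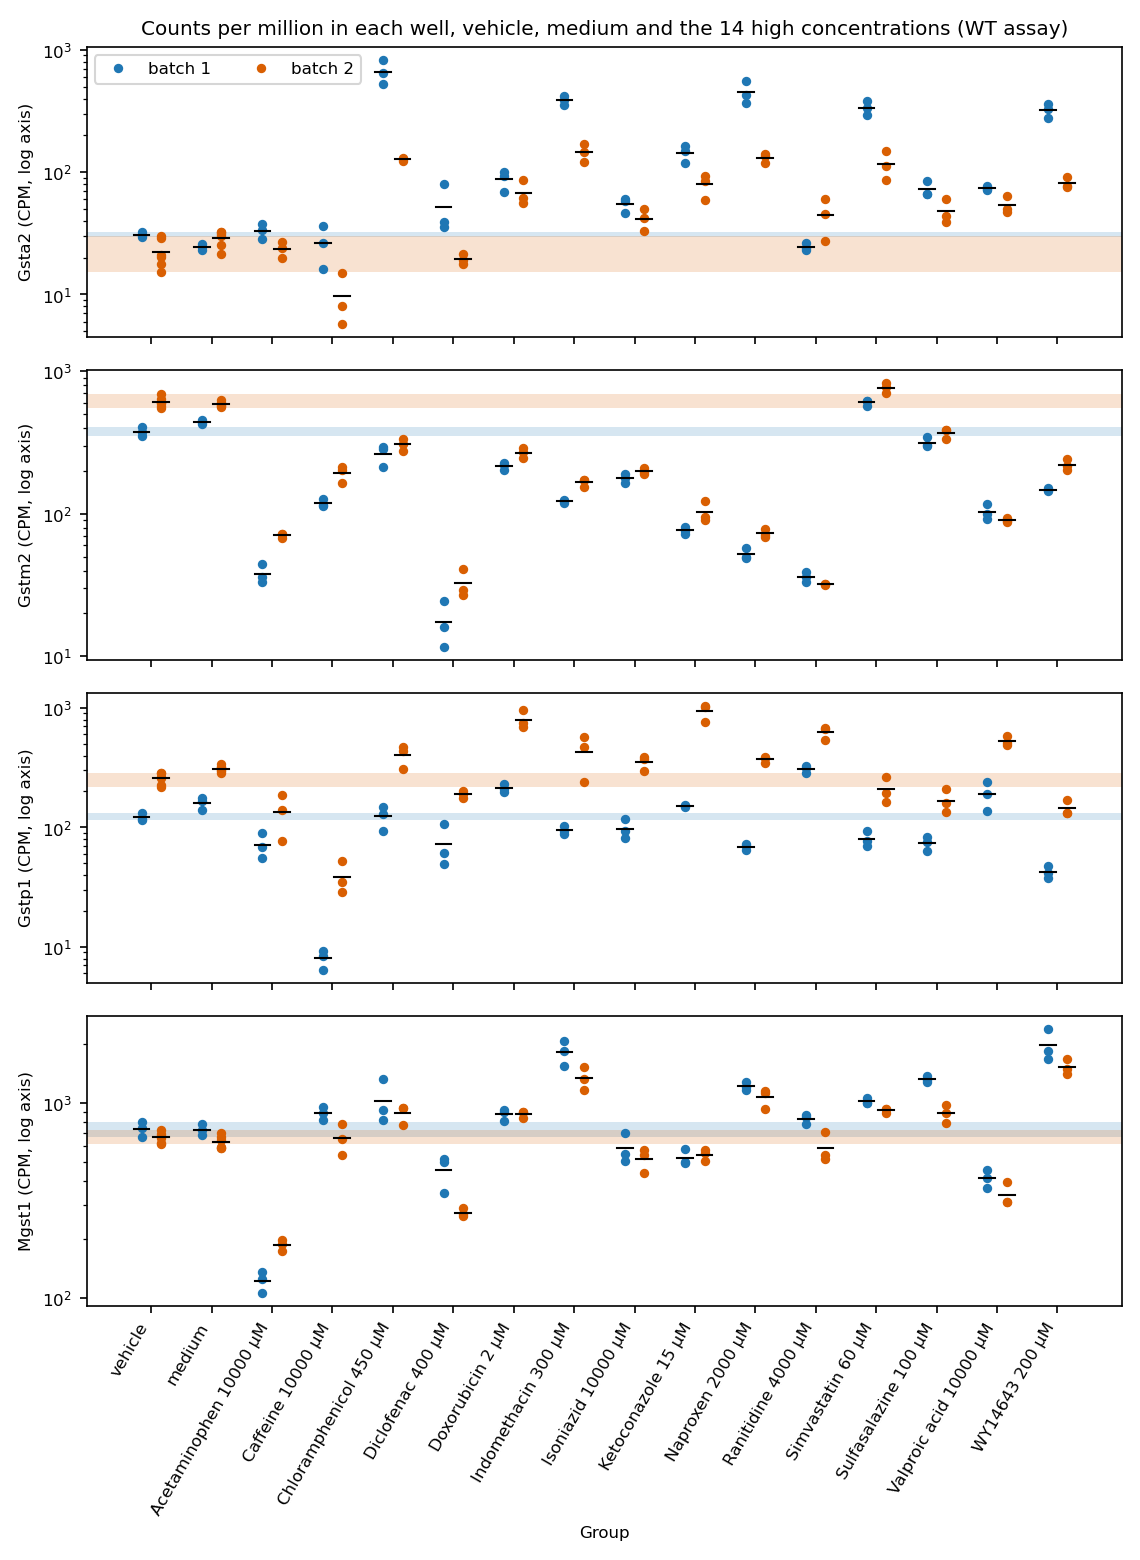
CPM (log axis) of Gsta2, Gstm2, Gstp1 and Mgst1 in each well of the vehicle, medium and 14 high-concentration groups, WT assay; blue is batch 1 and orange is batch 2, black lines are means and bands are the range of the vehicle wells of each batch. Gsta2 with chloramphenicol reached 525 to 824 CPM in batch 1 and 125 to 130 CPM in batch 2, and Gstm2 with diclofenac lay between 11.7 and 41.3 CPM in all 6 wells.

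The chemicals differed in which members they moved. WY14643 at 200 µM was 1 of 2 treatments with a call for all 9 members: 6 rose and 3, Gstm2, Gstm3 and Gstp1, fell, against 26% and 25.4% of all genes. At 8 µM it raised 5 members and lowered the same 3, against 28% and 28.2%, so its low concentration called no fewer genes than the high one. The concentrations of WY14643 differed in 3 of the 9 members, Gsta2 (1.93 ± 0.27), Gsta3 (0.92 ± 0.22) and Gsta4 (0.77 ± 0.18), each higher at 200 µM, where 2.52% of all genes were higher and 3.22% lower. Valproic acid, a histone deacetylase inhibitor, was the other treatment with 9 calls, 3 rising and 6 falling at 10000 µM, against 33.5% and 33.2% of all genes. At 400 µM it raised 3 and lowered 3, against 15.1% and 14%. Between its concentrations Mgst1 (0.68 ± 0.12 at 400 µM, -1.19 ± 0.12 at 10000 µM) and Gstt2 (0.33 ± 0.09 and -1.13 ± 0.09) changed direction. Gstp1 changed direction the other way, from lower at 400 µM to higher at 10000 µM, as given above. All 5 hepatocyte markers were called lower at 10000 µM, with a median L2FC of -1.66, and 0 were called at 400 µM, with a median of 0.05.

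Indomethacin at 300 µM raised 6 members and lowered 2, against 27.1% and 27.6% of all genes. Among them, Gstp1 changed by -0.09 in batch 1 and 0.85 in batch 2. Naproxen at 2000 µM raised 5 and lowered 2, against 27.6% and 26.2%, with all 5 hepatocyte markers called lower (median L2FC -1.42). Its low concentration of 80 µM raised 4, Gsta4, Gstt1, Gstt2 and Mgst1, and lowered none, against 8.64% and 7.4%. Diclofenac raised 1 member, Gsta3, and lowered 7, against 36% and 35.8%, and against the vehicle wells of the same plate in batch 2 the L2FC of Gsta3 was -0.21. Sulfasalazine at 100 µM raised 5 and lowered 3, against 21.3% and 19.6%. Among these anti-inflammatory drugs the concentrations differed, and no test was made between them. Simvastatin at 60 µM was the 1 high concentration that lowered no member: 6 rose, against 11.4% of genes higher and 12.5% lower. At 2.4 µM it lowered Gstt2 alone (-0.35 ± 0.09), against 1.13% and 1.28%.

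Acetaminophen at 10000 µM raised none and lowered 6, although 38.8% of all genes were higher and 40.1% lower, the widest response of the 14 chemicals. Gsta2 stood at 0.48 ± 0.25 there (adjusted p = 0.0749). Caffeine at 10000 µM raised Gstt2 alone and lowered 6, against 34.6% and 31.6%. Ranitidine at 4000 µM raised Gsta2 and Gstp1 and lowered 5, against 32.3% and 33.9%, and the change of Gsta2 was -0.19 in batch 1 and 1.07 in batch 2. Isoniazid at 10000 µM raised Gsta2 alone and lowered 5, against 17.4% and 17.3%. Ketoconazole at 15 µM raised 3, Gsta2, Gsta3 and Gstp1, and lowered 5, against 25% and 26.3%. Chloramphenicol raised 3 and lowered the mu pair, against 16.1% and 17.2%. Doxorubicin, a topoisomerase II inhibitor, raised 3 and lowered 3 at 2 µM, against 9.07% and 10.3%, and at 0.08 µM lowered Gstm2 alone (-0.41 ± 0.11), against 1.08% and 0.245%. That change was 0.03 in batch 1 and -0.74 in batch 2. The other 9 low concentrations had no call among the members. For sulfasalazine at 4 µM 9.35% of all genes were higher and 8.03% lower, for indomethacin at 12 µM 3.53% and 2.34%, for ketoconazole at 0.6 µM 0.844% and 0.775%, and for acetaminophen at 400 µM 0.716% and 0.667%. The share higher was 0.118% for diclofenac, 0.0883% for caffeine, 0.0687% for chloramphenicol, 0.0393% for ranitidine and 0.0196% for isoniazid, and the share lower was at most 0.0294% in these 5. The median L2FC of the 9 members ran from -1.13 for valproic acid to 0.79 for indomethacin at the high concentrations, and the median over all genes lay between -0.03 and 0.05 in each.

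Set directly against the low concentration of the same chemical, which shared the plate, the high concentration was higher in 35 and lower in 50 of 126 pairs, where 20.1% and 20.7% of all pairs were. For the 6 chemicals without a vehicle well on their batch 1 plate, 31 of the 44 calls against vehicle were also called in the same direction against the low concentration. For the other 8 chemicals 51 of 56 were. The same shares over all genes were not computed, so they show no trait of the members or of the plate. The 6 chemicals include WY14643, whose concentrations differed little, with 2.52% of all genes higher and 3.22% lower. Because treatments share vehicle wells and the high and low comparisons share treated wells, these counts are not independent of each other.

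The batches gave the same direction for 97 of the 100 calls at the high concentrations, and 73 of the 100 were called in both batches fitted alone. The same shares among all called genes were not computed. Batch 1 alone called 41 of the 126 pairs higher and 44 lower, where 35.4% of all pairs were called in either direction. Batch 2 alone called 44 higher and 53 lower, where 47% of all pairs were called. With the wells of a treatment added within each batch, which leaves 1 library per rat and treatment, 77 of the 100 were called again. Over all 126 pairs that fit called 34 higher and 43 lower, where 36.8% of all pairs were called in either direction. The size of the change differed between the batches for 23 of the 126 pairs by a test of that difference, where 4.39% of all pairs did. Of these, 8 were changes of Gsta2 and 4 each of Gsta4 and Gstp1. The ST assay was run on the same lysates and is no further replicate. There, 79 of the 80 WT calls of the 7 shared members had the same direction and 73 were also called. The same share among all genes called in WT was not computed. Over all pairs of these 7 members, ST called 34 higher and 42 lower, where 27.9% and 29.7% of all ST pairs were. The largest gap between the assays for a called pair at the high concentrations was 0.56, that of Gsta3 with ketoconazole (0.46 in WT and -0.11 in ST).

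**Figure D4:**
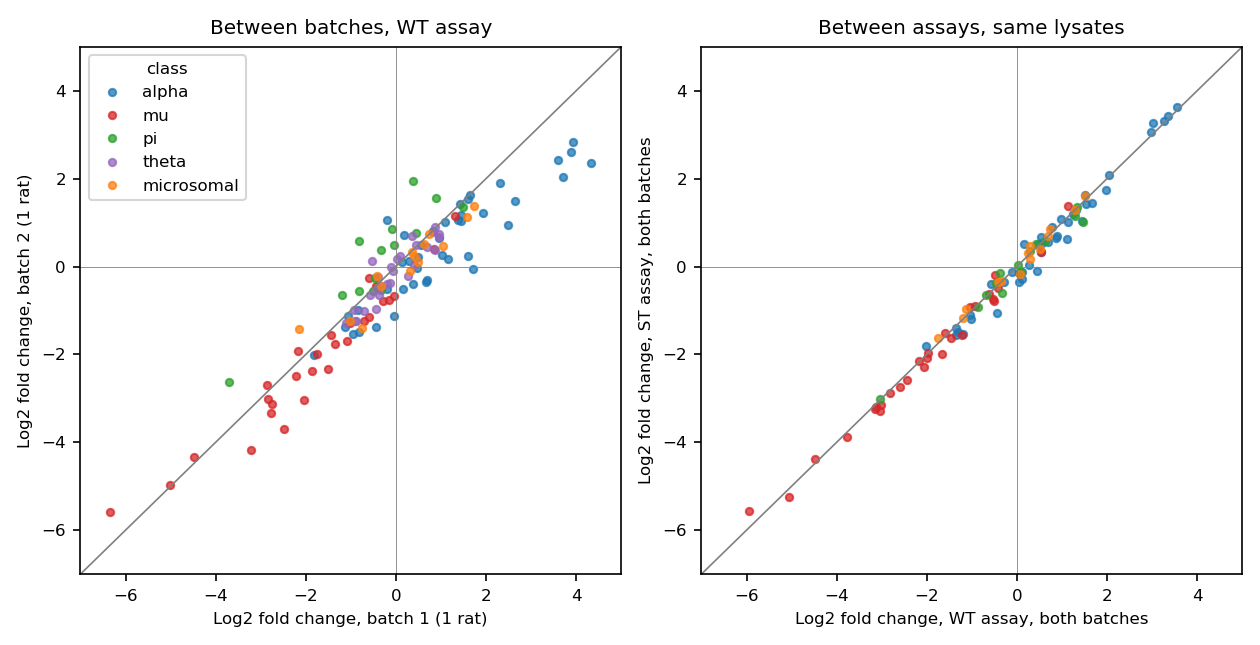
Left, log2 fold change of each measured member and high concentration in batch 1 (x axis) and batch 2 (y axis), WT assay; right, the same pairs for the 7 members of both assays in WT (x axis) and ST (y axis); colours are enzyme classes and the diagonal marks equal values. The largest alpha class rises lie below the diagonal on the left, at 3.60 to 4.34 in batch 1 and 2.05 to 2.83 in batch 2, all of Gsta2.

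The genes with the most similar pattern were sought over the 60 group means of log2 CPM, centred within each batch. These correlations are descriptions over means that share libraries and vehicle. Gstm2 and Gstm3 were nearest to each other (Pearson r = 0.95). Gsta2 was nearest to Gsta5 (0.99), Gsta3 to Gsta1 (0.92), Gstt2 to LOC103694878 (0.99), Mgst1 to Nudt3 (0.92), Gstt1 to Fcgrt (0.84), Gstp1 to Cnn3 (0.83) and Gsta4 to St3gal5 (0.81). For Gsta2 and Gsta3 the nearest gene was thus an alpha paralog whose probe may share reads. Among the members, the lowest value was that of Gstp1 and Gstt2 (-0.53).

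Of 18 other glutathione transferase genes listed, 12 were tested, and at the high concentrations they gave 48 calls higher and 51 lower of 168. Gsta5 rose with 12 chemicals, most with indomethacin (3.66 ± 0.27, adjusted p = 2.05e-26), and Gstk1, a mitochondrial and peroxisomal enzyme, rose with 10 and fell with none, most with ranitidine (2.37 ± 0.16, adjusted p = 3.15e-29). Gstm4 fell with 11 and Mgst2 with 7, the latter most with valproic acid (-2.89 ± 0.14, adjusted p = 1.5e-45). Glutathione supply was represented by 7 tested genes of 10, with 26 calls higher and 38 lower of 98. Gss, glutathione synthetase, fell with 11 chemicals and rose with none, and Gclc, the catalytic subunit of the rate-limiting glutamate-cysteine ligase, fell with 9 and rose with acetaminophen (1.16 ± 0.13, adjusted p = 4.51e-15). Cth, which makes cysteine, fell with 9, most with acetaminophen (-4.57 ± 0.18, adjusted p = 1.38e-57). Of 10 genes for conjugate export and mercapturate steps, 5 were tested, with 19 calls higher and 31 lower of 70. The canalicular conjugate exporter Abcc2 rose with 7 chemicals and fell with 5, and the peptidase Anpep rose with 1 and fell with 11. These shares can be read beside the 25.4% and 25.5% of all pairs. At the low concentrations, the calls were 9 higher and 10 lower of 168 for the other transferases, 6 and 9 of 98 for glutathione supply and 2 and 8 of 70 for conjugate steps, where 4.91% and 4.5% of all pairs were called.

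Markers of cell types moved with the treatments. The 5 hepatocyte markers summed to 28121 to 36600 CPM in vehicle and 5695 to 43431 CPM in treated wells, and they were called lower in 42 and higher in 6 of 70 pairs at the high concentrations, where 25.5% and 25.4% of all pairs were. Kupffer cell and leukocyte markers summed to 19.4 to 40.1 CPM in vehicle and 3.60 to 68.3 CPM in treated wells. Marco and Ptprc had a vehicle median under 1 CPM. The 3 tested were called lower in 20 and higher in 7 of 42 pairs, and they did not move alike. Cd163 and Clec4f were each lower with 10 chemicals and higher with 0, whereas Cd68 was higher with 7 and lower with 0. Stellate cell markers summed to 14.0 to 42.6 CPM and 0.966 to 71.9 CPM, with Acta2, Col1a1, Des and Pdgfrb under 1 CPM, and the 1 tested, Col1a2, was called lower in 8 and higher in 0 of 14 pairs. All 4 endothelial markers were under 1 CPM, with sums of at most 3.37 CPM in vehicle and 5.22 CPM in treated wells. Biliary markers summed to 33.1 to 49.0 CPM and 4.36 to 74.2 CPM, with Krt7 and Krt19 under 1 CPM, and the 2 tested were called lower in 9 and higher in 7 of 28 pairs. The part of these changes in the results for the transferases was not tested.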

How the data were processed

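Counts were deposited by the authors. The assay's provider ligated and sequenced the TempO-Seq probes, and reads were aligned with STAR 2.5.3a to rn6, allowing mismatches, and counted per probe with Tempo-SeqR. Per the labels, each well was measured by both assays, and no pair of wells held identical values. The members and gene lists were chosen with earlier results of these data known. Probe counts of a gene were added, and genes that averaged 10 counts or more over all wells were kept. CPM is a gene's count scaled to the well's total. edgeR 4.0.16 in R 4.3.3 (TMM factors, quasi-likelihood F-test) was fitted to all groups together with batch as a term, with Benjamini-Hochberg adjustment per comparison and a threshold of 0.05. Batch pairs the samples, since each batch is 1 rat. Wells carry no replicate number in the labels and were numbered in accession order. P-values measure mainly the spread between wells. Differences between batches were tested with a group for each treatment and batch. On simulated data for the comparison of 6 treated with 9 vehicle wells, with 10191 genes of which 200 changed 2-fold, 92% of the changed genes were called in the right direction and 16 of 200 calls were false. Alternatives were DESeq2 1.42.0, DESeq2-type size factors (RLE), no filter, a minimum absolute L2FC of 1, each batch alone, vehicle of the same plate, wells added per batch, no batch term, each replicate left out and the ST assay. The members are described in full for their largest and smallest called change of the same direction in both batches, and further treatments were added after their values were seen. The lists were described by counts, with at most 4 genes named. Pattern similarity used log2 CPM with a prior count of 2. Promoter sequences are from RefSeq (GRCr8), and no coordinates were taken from the count tables.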

Additional observations from a re-analysis of the deposited data

Results flagged for a closer look

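In 2 of the 18 groups of 6 wells that were tested by the gap between the most extreme well and its neighbour, 1 well stood apart, where chance gives about 1 in 20. A vehicle well of batch 2 held 67.7 CPM of Gstm3, while the other 5 held 46.8 to 53.5 CPM. A medium well of batch 2 held 14.9 CPM of Gstt1, while the other 5 held 22.7 to 25.4 CPM.

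For 4 called changes the batches had opposite signs and differed by edgeR's test of the difference. Gsta4 with 450 µM chloramphenicol changed by 1.72 in batch 1 and -0.05 in batch 2, a difference (batch 2 minus batch 1) of -1.78 (adjusted p = 9.17e-09). Gstm2 with 0.08 µM doxorubicin changed by 0.03 and -0.74, a difference of -0.77 (adjusted p = 0.00339). Gstp1 with 300 µM indomethacin changed by -0.09 and 0.85, a difference of 0.94 (adjusted p = 0.048). Gsta2 with 4000 µM ranitidine changed by -0.19 and 1.07, a difference of 1.23 (adjusted p = 0.00369). Chloramphenicol and indomethacin were on the batch 1 plate without vehicle wells. The parts of plate, rat and library preparation in these differences were not tested.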

How the results depend on the processing

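With DESeq2, with RLE factors and without the filter, 120, 120 and 115 of the 121 calls against vehicle kept their direction and threshold. With an absolute L2FC of at least 1, the high concentrations kept 21 calls higher and 35 lower, the low concentrations 4 and 3, medium 0, and high against low 17 and 29. The share of all genes past this limit is not given here, so the loss of calls is not set against that of other genes. With wells added per batch, 89 of 121 calls were kept, and the low concentrations gave 7 higher and 5 lower and medium 0. Medium also gave 0 calls with batch 2 only. Without the block of paired batches, the high concentrations gave 38 calls higher and 47 lower. Leaving out each replicate number in turn gave, for the high concentrations, 39 to 45 calls higher and 51 to 55 lower, for the low concentrations 9 to 13 and 5 to 7, for medium 0 to 1, and for high against low 29 to 35 and 46 to 50, and 97 of the 121 calls were kept each time. The 5 calls lower at the low concentrations came without replicate 3. Replicate numbers 4 to 6 exist only for vehicle and medium wells of batch 2, so leaving them out removed no treated well. Shares of all genes are also not given for the fit without the block or with replicates left out.

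Direction changed for 6 calls. Gsta4 with chloramphenicol at 450 µM was -0.047 in batch 2 alone and -0.25 against vehicle of the same plate. Gsta3 with diclofenac was -0.21 against vehicle of the same plate, and with ketoconazole -0.11 in the ST assay. Gstm2 with doxorubicin at 0.08 µM was 0.027, Gstp1 with indomethacin -0.086 and Gsta2 with ranitidine -0.19 in batch 1 alone. The cause was not tested. At 3 to 16 counts a well, the depth limits the size of the largest falls of Gstm3, and Gsta3 had the fewest counts in vehicle.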
